A study of Mus musculus with 34 samples.

Results

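The subunit genes of the ionotropic and metabotropic receptors for glutamate and GABA, the main fast excitatory and inhibitory transmitters of the brain, were followed through neuronal differentiation of mouse cells. Members were every gene entry whose symbol names an AMPA (Gria), kainate (Grik), NMDA (Grin) or metabotropic glutamate (Grm) receptor subunit, or a GABA-A (Gabra to Gabrr) or GABA-B (Gabbr) receptor subunit. The rule matched 45 of 29876 entries: 4 AMPA, 5 kainate, 7 NMDA, 8 metabotropic glutamate, 19 GABA-A and 2 GABA-B receptor genes. The rule reads symbols and no measured value, though it was set with earlier results of these data known. Total RNA was sequenced from 28 libraries in 9 groups, formed by 3 genotypes at 3 stages. Deletion (del) cells were df/+, with 1 chromosome lacking the 7qF3 interval of chromosome 7. Duplication-deletion (dupdel) cells were df/dp, with the interval duplicated on 1 chromosome and deleted on the other, and control (con) cells were +/+. All lines shared the label 129Sv in their genotype and C57BL/6N as background strain. Embryonic stem cells (ESCs) gave 3 del, 3 dupdel and 3 con libraries, neural progenitor cells (NPCs) taken at day 5 gave 3, 3 and 5 in that order, and immature dopaminergic neurons (NEU) taken at day 16 gave 2, 2 and 4. NPCs and neurons were derived through epiblast stem cells by a midbrain protocol. Neither the number of lines per genotype nor the independence of replicate cultures is given in the labels, and each p-value therefore reflects the scatter of these libraries alone, which may be technical.

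Ionotropic receptors are assemblies of subunits around an ion channel. AMPA and kainate receptors pass fast excitatory current, NMDA receptors add a calcium-permeable component that depends on voltage, and GABA-A receptors pass chloride. Metabotropic glutamate and GABA-B receptors signal through G proteins. Which subunits a cell makes sets the kinetics, the calcium permeability and the drug sensitivity of its receptors, and many subunits switch during development of the brain.

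Total counts per library ran from 5578135 to 78814036. The 6 shallowest, with at most 24053962 counts, were replicate 3 of every genotype in ESCs and replicate 5 of every genotype in NPCs. The other 22 held at least 35672609. The 7qF3 interval (mm9, chr7:133843288-134265543) had 22 genes, and those reaching a low cut on mean CPM in control cells of the same stage were used. As a median per library, they had 36.3% to 73.8% of that control mean in del libraries. The range was 72.5% to 126% in dupdel libraries and 73.6% to 141% in con libraries. Levels are given as CPM, counts scaled to the library's normalised size and not to transcript length. Summed over 8 pluripotency markers, control libraries held 1659 to 2599 CPM in ESCs and at most 5.47 CPM in NPCs and neurons. Summed over 9 neuronal markers, they held 211 to 222 CPM in ESCs, 551 to 1313 CPM in NPCs and 1908 to 3736 CPM in neurons. The day 16 control cultures also held markers of other cells: 670 to 935 CPM over 7 astrocyte genes and 520 to 1617 CPM over 8 neural crest and mesenchyme genes, against 194 to 304 CPM and 165 to 472 CPM in control NPCs. Of the second list, Dcn, Lum, Col1a1 and Col3a1 rose (log2 fold changes 5.33, 2.47, 2.27 and 1.88) by the test given below. Tcfap2a fell (-3.03), and Foxd3 (-1.92), Twist1 (-0.88) and Sox10 (0.32) did not pass. Summed over 9 dopaminergic markers, control neurons held 361 to 700 CPM and control NPCs 85.0 to 430 CPM, ranges that overlap. The sum hides differences between its genes. By the test given below, Slc6a3, Pitx3, Ddc, Th, En1 and Nr4a2 rose in neurons over NPCs. Their log2 fold changes were 8.30, 6.31, 5.47, 4.58, 2.13 and 1.88 in that order. Slc18a2 (3.79), Foxa2 (-0.41) and Lmx1a (-0.43) did not pass. Summed over 8 neural progenitor markers, control neurons still held 842 to 1114 CPM, against 1878 to 2354 CPM in control NPCs.

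In control cells, receptor genes were low in ESCs, and most were higher in neurons than in NPCs. Of the 45 genes, 40 passed the filter on low counts in the comparison of the 3 control stages. Between neurons and NPCs, 31 of these 40 rose and 0 fell (edgeR quasi-likelihood test, Benjamini-Hochberg adjusted p below 0.05 over 18365 genes). Over all genes tested, 23.2% rose and 20.5% fell. The median log2 fold change was 3.48 over the 40 receptor genes and 0.10 over all genes. At an unadjusted p below 0.05, 34 of the 40 passed; DESeq2 called 31 higher and 0 lower, and limma-voom 34 and 0. Leaving out 1 library at a time gave 28 to 33 higher and 0 lower. Astrocyte and mesenchyme markers moved with the stage too, as given above, and their part in these changes was not tested. In RNA from whole cultures, fewer cells of a type and less RNA per cell cannot be told apart.

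The earlier step was mixed. Between control NPCs and ESCs, 14 of the 40 rose and 5 fell, where 21% of all genes rose and 20.5% fell; the median log2 fold change was 1.31 over the receptor genes and 0.01 over all genes. Without ESC control replicate 1, 3 genes fell. Between control neurons and ESCs, 31 of 40 rose and 1 fell, beside 29.8% and 27.6% of all genes. Taken over both steps, 11 genes rose at each, 16 rose only in the step to neurons by these tests, 4 fell in NPCs and then rose, 3 rose in NPCs with no call after that, 1 fell in NPCs with no call after that, and 5 passed in neither step. Each of these groups is a pair of calls, and no difference between steps was tested. The 5 genes that did not pass the filter (Gabra6, Gabrd, Gabrr2, Gabrr3 and Grm6) held 10, 2, 119, 26 and 59 counts over all 28 libraries.

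**Figure D1:**
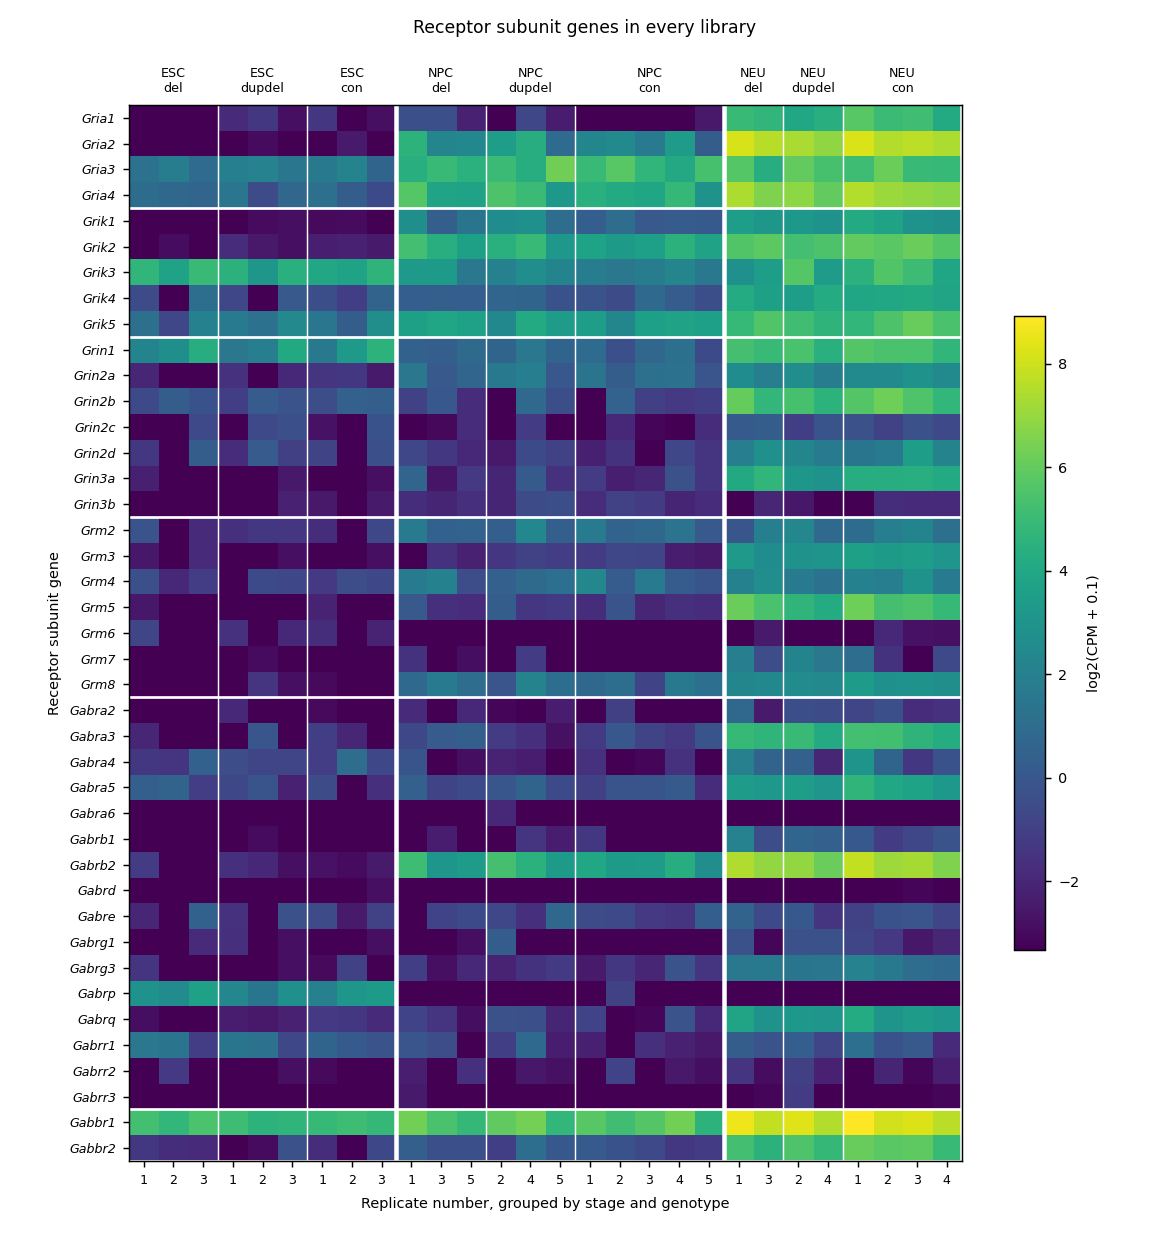
Level of 41 of the 45 receptor genes (rows, grouped by family) in each of the 28 libraries (columns, del, dupdel and con within ESC, NPC and NEU), as log2 of CPM plus 0.1. In rows such as Gria4, Grin3a, Grm5 and Gabbr1 each of the 8 neuron libraries is above the other 20, and Gabrp shows the opposite, with counts in the ESC libraries and 1 NPC library.

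The AMPA receptor genes encode the channels of fast glutamate transmission, and the GluA2 subunit from Gria2 keeps edited receptors nearly impermeable to calcium. Gria2 (mm9, chr3:80488858-80606713) had 0, 0.0874 and 0 CPM in the 3 control ESC libraries. It had 4.82, 5.48, 3.33, 10.4 and 1.12 CPM in the 5 control NPC libraries, and 299, 181, 207 and 172 CPM in the 4 control neuron libraries. No 2 stages overlapped. The log2 fold change was 7.21 ± 0.93 (SE) for NPCs over ESCs, where ESCs held 3 counts and the ratio of counts was 170 with a 95% counting interval of 58.1 to 826. It was 5.44 ± 0.52 for neurons over NPCs (adjusted p = 2.72e-06). Gria4 (chr9:4417893-4796234), whose product gives AMPA receptors rapid kinetics, had 2.17, 1.11 and 0.564 CPM in ESCs, 22.02, 18.0, 15.1, 28.4 and 7.53 CPM in NPCs, and 184, 136, 121 and 107 CPM in neurons. Its stages did not overlap either, with log2 fold changes of 3.78 ± 0.49 (adjusted p = 3.91e-05) and 2.95 ± 0.38 (adjusted p = 3.25e-05).

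Gria1 (chr11:56825193-57143746), the subunit that is trafficked to synapses in plasticity, was close to 0 until the neuron stage. It had 0.284, 0 and 0.0434 CPM in control ESCs. In control NPCs 4 libraries were at 0 and replicate 5 had 0.0772 CPM, and control neurons had 52.7, 32.8, 36.2 and 18.1 CPM. The neuron libraries held 7478 counts against 2 in NPCs, a ratio of 4544 with a 95% counting interval of 1258 to 37530. Its lower level in NPCs than in ESCs rests on 2 and 12 counts in those groups (log2 fold change -3.60 ± 1.215, adjusted p = 0.0287). That call was lost without ESC replicate 1 (adjusted p = 0.703), without any one of NPC replicates 1 to 4, and under limma-voom. Gria3 (chrX:38754031-39031778) rose early, by 3.48 ± 0.50 between ESCs and NPCs. Its level was 41.3 ± 20.5 CPM in neurons (SD, n = 4) and 33.4 ± 13.7 CPM in NPCs (SD, n = 5), with a log2 fold change of 0.34 ± 0.38 that did not pass the test.

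For 3 genes the table also lists an overlapping entry that may be a further transcript of the same gene, so that reads could be split between entries. The entry glur-1 lies inside Gria1 and averaged 0, 0.116 and 5.19 CPM in control ESCs, NPCs and neurons. GluR alpha3, inside Gria3, averaged 0.0689, 5.15 and 6.02 CPM at the same stages. GABA-B-R, with the span of Gabbr1, averaged 11.3, 3.12 and 2.58 CPM. The levels of Gria1, Gria3 and Gabbr1 are uncertain to that extent.

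All 5 kainate receptor genes rose between NPCs and neurons. Grik2 (chr10:48819269-49508560) encodes a subunit that forms kainate receptors alone or with the high-affinity subunits Grik4 and Grik5. It had 0.103, 0.117 and 0.0868 CPM in control ESCs, 13.8, 10.2, 12.0, 23.3 and 13.2 CPM in NPCs, and 62.4, 54.7, 68.7 and 50.8 CPM in neurons. The gene had the smallest p of the 40 between NPCs and ESCs, with a log2 fold change of 7.08 ± 0.41 (adjusted p = 1.09e-07), and rose a further 2.06 ± 0.24 in neurons (adjusted p = 1.25e-05). Grik1 (chr16:87896142-88290503) had 0.0258, 0.0291 and 0 CPM in ESCs, 1.16, 2.01, 0.962, 1.08 and 1.00 CPM in NPCs, and 17.6, 13.1, 7.51 and 6.75 CPM in neurons. Its NPC libraries held 350 counts in all, against 2 in ESCs, and neurons lay above every NPC library (log2 fold change 3.20 ± 0.42, adjusted p = 4.10e-05).

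Grik3 (chr4:125168075-125391417), a subunit of kainate receptors with low agonist affinity, followed another course. It had 16.3, 13.1 and 25.1 CPM in control ESCs, 3.41, 2.79, 3.43, 4.65 and 2.86 CPM in NPCs, and 23.4, 48.6, 33.8 and 15.3 CPM in neurons. Every NPC library lay below every library of the other stages, while ESCs and neurons overlapped. The log2 fold change was -2.42 ± 0.35 in NPCs against ESCs (adjusted p = 9.18e-05) and 3.17 ± 0.34 in neurons against NPCs (adjusted p = 6.54e-06). Neurons and ESCs differed by 0.76 ± 0.37, which did not pass (adjusted p = 0.0951).

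The obligatory NMDA receptor subunit, Grin1 (chr2:25146697-25174683), was also lowest in NPCs. It had 2.94, 9.44 and 24.3 CPM in control ESCs, 1.81, 0.693, 1.56, 2.17 and 0.579 CPM in NPCs, and 50.6, 42.1, 42.8 and 26.9 CPM in neurons. Its ESC libraries spread widely, but none lay within the range of NPCs or of neurons. Its log2 fold change was -3.16 ± 0.55 in NPCs over ESCs (adjusted p = 0.000436) and 4.91 ± 0.56 in neurons over NPCs (adjusted p = 1.27e-05). Of the 7 NMDA receptor genes, 5 rose between NPCs and neurons. Grin2b, a partner subunit typical of the embryonic brain, changed by 6.72 ± 0.81, and Grin2a, typical of the mature forebrain, by 1.81 ± 0.44. Grin3a (chr4:49678098-49857953), which lowers the calcium permeability of NMDA receptors, had 0, 0 and 0.0434 CPM in ESCs, 0.341, 0.104, 0.149, 0.729 and 0.270 CPM in NPCs, and 19.6, 20.01, 21.1 and 17.6 CPM in neurons. The 4 neuron libraries were close together and far above the NPCs (log2 fold change 5.97 ± 0.56, adjusted p = 2.21e-06). Grin2c, at 3.12 ± 1.39, and Grin3b, at -0.82 ± 1.08, did not pass.

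Of the 7 metabotropic glutamate receptor genes tested, 5 rose between NPCs and neurons. Among the 5, Grm7 was low, at 2.00, 0.244, 0 and 0.558 CPM in control neurons, and its call was lost without neuron replicate 1, 2 or 4. Grm5 (chr7:94732678-95283573), a receptor of the group that releases intracellular calcium, had 0.129, 0 and 0 CPM in control ESCs, 0.207, 0.797, 0.149, 0.217 and 0.193 CPM in NPCs, and 75.5, 39.2, 45.4 and 29.8 CPM in neurons. The log2 fold change in neurons against NPCs was 7.25 ± 0.62 (adjusted p = 1.05e-06). The Grm5 call of a rise between ESCs and NPCs was lost by limma-voom and without the low-depth libraries. It was also lost without ESC replicate 2 or 3 or NPC replicate 2. Grm2 (0.69 ± 0.70) and Grm4 (1.06 ± 0.57), presynaptic receptors that lower transmitter release, did not pass in that step; both rose between ESCs and NPCs, by 3.01 ± 0.91 and 2.18 ± 0.70. The first of these calls was lost without ESC replicate 1, and the second without ESC replicate 1 or 3 or NPC replicate 1, and by limma-voom.

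**Figure D2:**
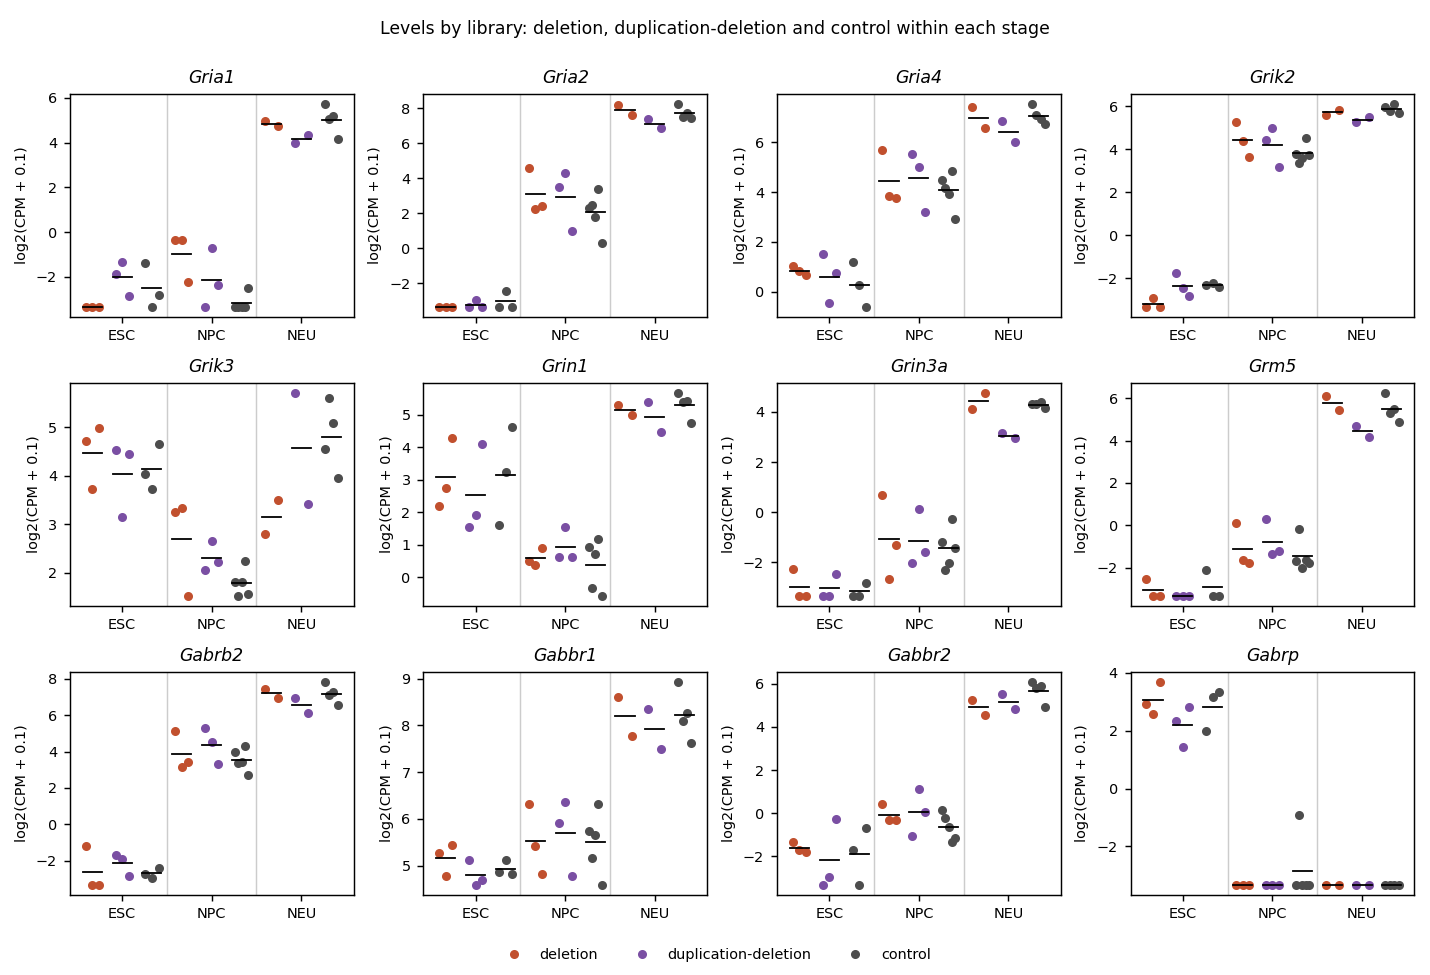
Levels of 12 receptor genes in every library, as log2 of CPM plus 0.1, for del, dupdel and con cells within ESC, NPC and NEU; short lines are group means of the plotted values. In con cells Grik3 and Grin1 are lowest in NPCs, while Grik3 of del cells overlaps between NPCs and neurons; Gria1 and Grm5 are near 0 before the neuron stage, and Gabrp has counts in all 9 ESC libraries and 0 in the 8 neuron libraries.

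GABA-A receptors combine alpha, beta and other subunits. Of the 15 genes tested, 11 rose between NPCs and neurons, 1 (Gabrb2) rose between ESCs and NPCs, and 2 (Gabrp and Gabrr1) fell between ESCs and NPCs. Gabrb2 (chr11:42233259-42446093), a main beta subunit of the mature brain, had 0.0516, 0.0291 and 0.0868 CPM in control ESCs, 15.6, 10.2, 10.8, 19.6 and 6.41 CPM in NPCs, and 225, 140.0, 152 and 93.6 CPM in neurons. The stages did not overlap, with log2 fold changes of 7.82 ± 0.59 (adjusted p = 5.26e-07) and 3.64 ± 0.33 (adjusted p = 1.70e-06).

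Gabrp (chr11:33450781-33478957), the pi subunit, is known mainly from tissues outside the brain. It had 3.90, 8.98 and 9.99 CPM in control ESCs. In control NPCs it was at 0 in 4 libraries and at 0.433 CPM in replicate 2, and all 4 control neuron libraries were at 0. NPCs over ESCs gave a log2 fold change of -6.38 ± 1.47 (edgeR adjusted p = 0.00501, DESeq2 adjusted p = 0.0889). Against a floor of 3 counts over the 4 neuron libraries, Gabrp was at least 544-fold lower in neurons than in ESCs. All 6 mutant ESC libraries had Gabrp counts too, from 2.63 to 12.7 CPM, and all 6 mutant NPC and 4 mutant neuron libraries were at 0. Gabrr1 (chr4:33219531-33250563), a rho subunit best known from the retina, was low throughout. It had 1.42, 1.02 and 0.782 CPM in control ESCs, 0.110, 0, 0.216, 0.118 and 0.0772 CPM in NPCs, and 2.15, 0.753, 0.986 and 0.173 CPM in neurons. The call of a lower level in NPCs than in ESCs (log2 fold change -3.34 ± 0.99, adjusted p = 0.0148) was lost without ESC replicate 1 (adjusted p = 0.0506).

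Many GABA-A genes lie in chromosomal clusters. On chromosome 11, Gabrb2 rose in neurons against NPCs, as given above, while Gabra6, the subunit of cerebellar granule cells that lies in the same cluster, held 10 counts in 1 of 28 libraries. On chromosome 7, Gabra5 and Gabrg3 rose in the same step, by 4.67 ± 0.70 and 3.15 ± 0.91. On the X chromosome, Gabra3 (5.78 ± 0.56) and Gabrq (5.34 ± 0.94) rose, and Gabre, between 0.430 and 0.827 CPM in control neurons, did not pass (0.14 ± 0.73). On chromosome 5, Gabra2, Gabra4, Gabrb1 and Gabrg1 stayed at or below 1.46 CPM in every control neuron library except for Gabra4 in replicate 1, at 7.95 CPM. Of these 4, Gabra4 and Gabrg1 passed the test. Gabra4 rose by 4.68 ± 1.26, and Gabrg1, with 53 counts in control neurons and 0 in control NPCs, was at least 21.5-fold higher against a floor of 3 counts over the NPC libraries. The Gabra4 call was lost without neuron replicate 1, and that of Gabrg1 without neuron replicate 1, 2 or 4. The differences between clusters were not tested.

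**Figure D3:**
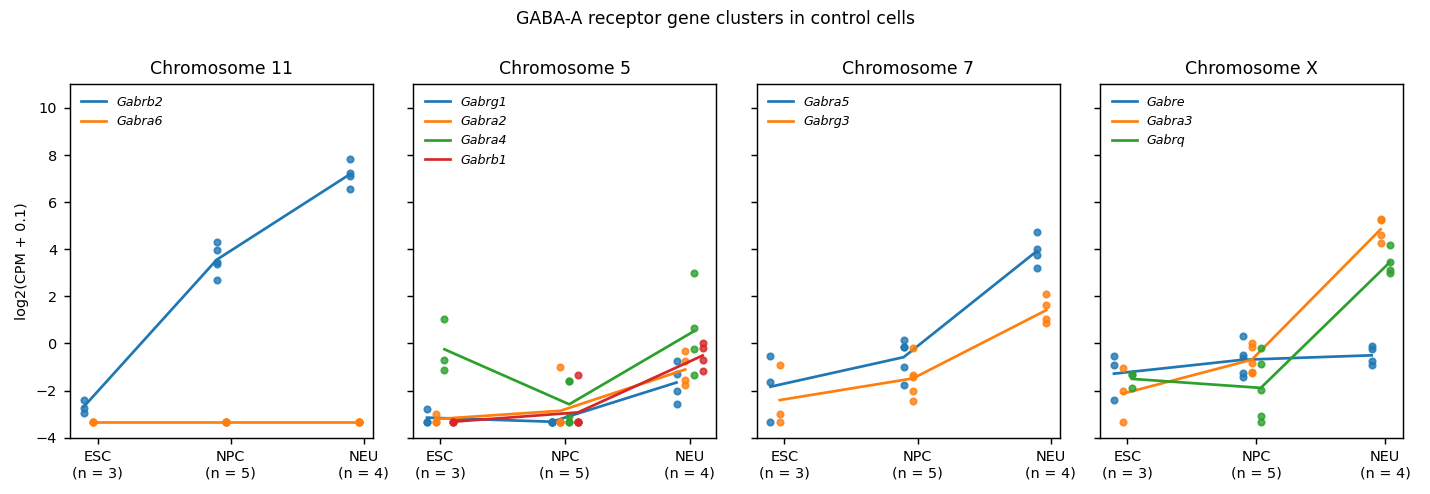
Genes from 4 GABA-A receptor gene clusters in control ESCs (n = 3), NPCs (n = 5) and neurons (n = 4), as log2 of CPM plus 0.1; points are libraries and lines join means of the plotted values. The plotted genes on chromosomes 11, 7 and X are highest in neurons, except Gabra6 and Gabre, while the 4 genes on chromosome 5 stay low in most libraries.

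GABA-B receptors need both of their subunits. Gabbr1 (chr17:37182911-37211250), which binds GABA, had 29.1, 34.4 and 28.3 CPM in control ESCs, 53.5, 35.8, 50.3, 79.2 and 24.0 CPM in NPCs, and 485, 271, 305 and 198 CPM in neurons. Gabbr2 (chr4:46676770-47004586), which couples the receptor to G proteins, had 0.207, 0 and 0.521 CPM in ESCs, 1.02, 0.745, 0.547, 0.295 and 0.347 CPM in NPCs, and 67.5, 56.0, 59.6 and 30.8 CPM in neurons. ESCs and NPCs overlapped for both genes, and neurons lay above both stages. The log2 fold change in neurons against NPCs was 2.73 ± 0.33 for Gabbr1 (adjusted p = 1.84e-05) and 6.49 ± 0.58 for Gabbr2 (adjusted p = 1.69e-06).

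Promoter windows were at hand for 32 of the 45 genes, from 250 bases before to 50 after a RefSeq transcript start (build GRCm38.p6). The bases before the start are printed, 5′ to 3′ on the gene's strand, for 3 genes with large rises in neurons and for Gabrp, the 1 gene lower in neurons than in ESCs. Capitals mark GGACAG or its reverse complement CTGTCC, letters that occur in the site of REST, a repressor of neuronal genes in cells that are not neurons.
Gria2, chr3:80802836-80803085, minus strand: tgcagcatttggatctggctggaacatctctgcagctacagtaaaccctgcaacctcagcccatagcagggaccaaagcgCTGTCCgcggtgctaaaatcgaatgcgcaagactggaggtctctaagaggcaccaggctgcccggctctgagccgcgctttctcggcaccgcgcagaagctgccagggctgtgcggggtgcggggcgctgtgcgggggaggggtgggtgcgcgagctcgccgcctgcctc
Grin1, chr2:25319188-25319437, minus strand: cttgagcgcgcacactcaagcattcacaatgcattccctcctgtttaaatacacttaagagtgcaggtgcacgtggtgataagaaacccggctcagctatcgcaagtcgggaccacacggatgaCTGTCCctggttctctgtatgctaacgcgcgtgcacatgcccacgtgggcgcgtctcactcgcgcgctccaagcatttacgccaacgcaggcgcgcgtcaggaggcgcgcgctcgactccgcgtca
Gabbr2, chr4:46991715-46991964, minus strand: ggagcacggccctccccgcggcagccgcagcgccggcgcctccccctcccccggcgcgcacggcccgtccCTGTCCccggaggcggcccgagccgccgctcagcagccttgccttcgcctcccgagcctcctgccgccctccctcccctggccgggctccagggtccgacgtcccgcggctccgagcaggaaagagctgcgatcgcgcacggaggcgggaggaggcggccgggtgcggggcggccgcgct
Gabrp, chr11:33578958-33579207, minus strand: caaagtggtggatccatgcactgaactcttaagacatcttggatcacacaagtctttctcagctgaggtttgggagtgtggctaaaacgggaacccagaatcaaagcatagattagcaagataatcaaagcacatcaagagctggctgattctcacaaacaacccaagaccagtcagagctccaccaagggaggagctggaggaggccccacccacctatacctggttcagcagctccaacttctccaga
GGACAG was found on either strand in the whole windows of 12 of the 32 genes, in 33.3% of their 39 windows and in 22.2% of all 32851 windows. The windows of Gria2, Grin1 and Gabbr2 each held 1 such match, and the Gabrp window held 0. These printed genes do not represent the 32. Gabra3 and Gabrq, which rose more than Grin1 between NPCs and neurons, had windows with no match. Gabrb1 and Grin3b, with no call in that step, had a match. A link between the motif and the rise was not tested. CAGCACC, other letters of that site, was found in 5.13% of the 39 windows and in 7.14% of all windows, and GGGCGG, a GC box, in 48.7% and 35.7%. The motifs can overlap each other, and a match is a run of letters and not a measured site.

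Partner genes of the receptors were counted in the same control comparison, neurons against NPCs. Over all genes tested there, 23.2% rose and 20.5% fell. Of 21 auxiliary subunits of AMPA and kainate receptors, 16 rose and 0 fell. Of 18 inhibitory postsynaptic genes, 14 rose and 0 fell, and of 24 excitatory postsynaptic genes, 16 rose and 2 fell. Shisa7 is counted in both the auxiliary and the inhibitory list. Shisa7, an auxiliary protein of AMPA and GABA-A receptors, averaged 39.7 ± 12.5 CPM in control neurons (SD, n = 4) and 2.42 ± 0.93 CPM in control NPCs (SD, n = 5), a log2 fold change of 4.07 ± 0.33. Frrs1l, which takes part in AMPA receptor assembly, rose by 3.37 ± 0.33 and the secreted Olfm3 by 6.13 ± 0.58. Among scaffold genes, the kinase subunit gene Camk2b rose by 4.88 ± 0.24, the adhesion gene Lrrtm2 by 4.57 ± 0.36 and Epb4.1l1, a cytoskeletal linker, by 2.21 ± 0.24. Of the inhibitory list, Hap1, a trafficking adaptor, rose by 3.17 ± 0.24 and Gabarapl1, of the GABA-A receptor associated protein family, by 2.13 ± 0.23.

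Of 19 genes for synthesis, loading and uptake of transmitter, 15 rose and 0 fell, beside the same 23.2% and 20.5% of all genes. Slc1a2 and Slc1a3 are on this list and also among the astrocyte markers. The glutamate transporter gene Slc1a1 rose by 4.76 ± 0.50 and Gad1, a GABA-synthesising enzyme, by 5.70 ± 0.62. Of 4 GABA-B auxiliary genes, 3 rose, with Kctd16 at 4.31 ± 0.84, Kctd12 at 1.53 ± 0.34 and Kctd12b at 1.98 ± 0.60. Of 26 delta glutamate, glycine, nicotinic, serotonin and purine-gated channel genes tested out of 32, 11 rose and 2 fell. Chrnb3 and Chrna6, nicotinic subunits typical of midbrain dopaminergic neurons, averaged 28.2 ± 13.7 and 26.8 ± 12.2 CPM in control neurons (SD, n = 4), and 0 and 0.0737 ± 0.125 CPM in control NPCs (SD, n = 5). The glycine receptor gene Glra2 rose by 8.94 ± 0.97. Of 4 chloride transporter genes, 1 rose and 2 fell. Slc12a5 (KCC2), which extrudes chloride from mature neurons, had 35.3 ± 16.4 CPM in control neurons and 1.71 ± 0.37 CPM in control NPCs (SD, n = 4 and 5). Slc12a2 (NKCC1), which loads chloride, had 26.5 ± 3.835 CPM in control neurons and 55.3 ± 16.7 CPM in control NPCs. Their log2 fold changes were 4.40 ± 0.37 and -1.03 ± 0.26 (adjusted p of the second 0.00547).

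Mutant cells went through the same stages, tested in 1 fit of all 28 libraries with 41 of the 45 genes. In del cells, 21 genes rose and 0 fell between NPCs and neurons, where 12.7% of 19996 genes rose and 12.5% fell. In dupdel cells, 18 rose and 0 fell, where 10.6% and 10.4% of genes did. Between ESCs and NPCs, 15 rose and 3 fell in del cells (18.8% and 14.9% of all genes) and 16 rose and 3 fell in dupdel cells (19.2% and 16.6%). Leaving out ESC del replicate 2 gave 9 rising genes in place of 15, and leaving out the low-depth libraries gave 1 falling gene in dupdel cells in place of 3. Grik3 fell between ESCs and NPCs in both mutants, with log2 fold changes of -1.66 ± 0.54 in del cells and -1.85 ± 0.54 in dupdel cells.

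Whether a stage change differed between mutant and control cells was tested directly, and 0 of 41 receptor genes passed in any of 4 such contrasts (edgeR, smallest adjusted p = 0.528). The share of all genes past the threshold in each contrast and direction was 0% or 0.005%. At an unadjusted p below 0.05 there were 4 genes for del cells at the step to NPCs, 2 for del cells at the step to neurons, 3 for dupdel cells at the first step and 3 at the second. The last of these counts was 9 with the replicate block, 10 without the low-depth libraries, 6 by DESeq2 and 7 by limma-voom. DESeq2 called 1 gene in 1 contrast, Gria1 in del cells at the step to NPCs (log2 difference 9.24 ± 2.03, adjusted p = 0.00471), and limma-voom called 0. That Gria1 value compares levels of under 1 CPM. For dupdel cells at the step to neurons, 35 of 41 genes had a negative difference, with a median of -1.04 against -0.07 over all genes. The median for del cells at that step was also negative, at -0.47 against -0.07 over all genes. These genes were measured in the same libraries, so their signs are not independent. Any part of neuron content in these differences was not tested.

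Within a stage, no receptor gene differed between genotypes at the threshold. In ESCs, 19 of 45 genes could be tested, and 0 passed for del against con, dupdel against con or del against dupdel, where 0% of 16470 genes passed in each. DESeq2 and limma-voom called 0 as well. At an unadjusted p below 0.05 edgeR and DESeq2 gave 0 in each, and limma-voom gave 1 for del against con and 0 in the others. With the replicate number as a block, edgeR gave 0 for del against con, 1 for dupdel against con and 4 for del against dupdel at that level. The smallest p for del against con was that of Gabra5, which had 1.23, 1.38 and 0.374 CPM in del ESCs and 0.594, 0 and 0.217 CPM in con ESCs, ranges that overlap (log2 fold change 1.96 ± 1.32). Gabbr1 came next, with 38.6, 27.2 and 43.2 CPM in del ESCs and 29.1, 34.4 and 28.3 CPM in con ESCs (0.30 ± 0.25). For dupdel against con it was Gabrp, with 5.02, 2.63 and 7.00 CPM in dupdel ESCs and 3.90, 8.98 and 9.99 CPM in con ESCs (-0.64 ± 0.47), and then Gabrr1, with 2.64, 2.31 and 0.523 against 1.42, 1.02 and 0.782 CPM (0.80 ± 0.78). Between the mutants, Gabrp had 7.502, 5.94 and 12.7 CPM in del ESCs, above most of the dupdel values (0.88 ± 0.48), and Gabbr1 had 34.8, 24.03 and 25.8 CPM in dupdel ESCs, below most of the del values (0.40 ± 0.25). The groups overlapped in every one of these comparisons.

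In NPCs, 0 of 34 receptor genes passed for either mutant against con or between mutants; of 16783 genes, 0% were higher and 0.00596% lower in del, 0.00596% higher and 0.00596% lower in dupdel, and 0.00596% higher and 0.0179% lower in del against dupdel. DESeq2 and limma-voom called 0 as well. The unadjusted counts were 3, 3 and 1. With the replicate block they were 6, 3 and 1, and without the low-depth libraries 6, 6 and 0 of 35 genes. Gria1 had 0.690, 0.696 and 0.115 CPM in del NPCs, and 0, 0, 0, 0 and 0.0772 CPM in con NPCs. The groups did not overlap, and the counts were 78 against 2, a ratio of 80.3 with a 95% counting interval of 21.5 to 675. In dupdel NPCs it had 0, 0.519 and 0.0937 CPM. The edgeR adjusted p was 0.891 for del and 1 for dupdel.

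Grik1 had 6.15, 6.99 and 1.97 CPM in dupdel NPCs and 1.16, 2.01, 0.962, 1.08 and 1.00 CPM in con NPCs. The lowest dupdel library lay just under the highest con library. The log2 fold change was 2.02 ± 0.55, with an edgeR unadjusted p of 0.00297 and an adjusted p of 0.834. In the authors' deposited table the same comparison had a log2 fold change of 2.05 with an SE of 0.53 and an adjusted p of 0.0361, the only receptor gene of 21 listed with an adjusted p below 0.05. Grik3 had 9.45, 9.97 and 2.79 CPM in del NPCs and 3.41, 2.79, 3.43, 4.65 and 2.86 CPM in con NPCs, with 2 del libraries above all con libraries and 1 at the bottom of their range (1.13 ± 0.39). Between the mutants, Gabra3 had 0.535, 1.05 and 1.19 CPM in del NPCs and 0.354, 0.215 and 0.0469 CPM in dupdel NPCs, without overlap (2.11 ± 0.84, adjusted p = 1.00).

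Of the 34 log2 fold changes of dupdel over con NPCs, 30 were positive, with a median of 0.57 against 0.01 over all genes. For del NPCs, 25 of 34 were positive, with a median of 0.34 against 0.04. With the replicate block the medians were 0.60 for dupdel and 0.57 for del, and that of del over dupdel was 0.01, against -0.29 without it. All 9 neuronal markers were positive in dupdel NPCs, with a median of 0.64, and their summed level was 998 to 1868 CPM in dupdel, 939 to 2282 CPM in del and 551 to 1313 CPM in con NPCs. The part of neuron content in these values was not tested.

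In neurons, 0 of 40 receptor genes passed for del against con, dupdel against con or del against dupdel. Of 17931 genes, 0% passed in each direction for del; 0.0112% were higher and 0.0279% lower in dupdel; and 0.0279% were higher and 0.00558% lower in del against dupdel. The unadjusted counts were 2, 5 and 4. DESeq2 called 1 gene, Grin3a, lower in dupdel than in con and higher in del than in dupdel, and limma-voom called 0. With the replicate number as a block, 0 receptor genes passed in ESCs or neurons.

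Grin3a had 8.90 and 7.60 CPM in dupdel neurons, 17.3 and 26.7 CPM in del neurons, and 19.6, 20.01, 21.1 and 17.6 CPM in con neurons. Both dupdel libraries lay below all 6 others. The log2 fold change over con was -1.26 ± 0.29, with an unadjusted p of 0.00189 and an adjusted p of 0.543 by edgeR, and of 0.00882 by DESeq2. The authors' deposited table gave a log2 fold change of -1.26, an SE of 0.29 and an adjusted p of 0.00313, the only receptor gene of 34 listed below 0.05. Del over dupdel was 1.44 ± 0.33 (edgeR adjusted p = 0.408, DESeq2 0.00630), a comparison that shares the dupdel libraries. Over con, del neurons differed by 0.18 ± 0.28.

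Grm5 had 69.1 and 43.0 CPM in del neurons and 25.5 and 18.2 CPM in dupdel neurons (1.39 ± 0.45, adjusted p = 0.503). Grik3 had 6.88 and 11.3 CPM in del neurons and 23.4, 48.6, 33.8 and 15.3 CPM in con neurons, and both del libraries were below all con libraries (-1.73 ± 0.68, adjusted p = 1.00). In dupdel neurons it had 51.9 and 10.7 CPM, the highest and the second lowest value of the 8 libraries. For Grik3 the log2 fold change of neurons over NPCs was 0.29 ± 0.58 in del cells, and its difference from that of control cells was -2.85 ± 0.76 (edgeR unadjusted p = 0.000951, adjusted p = 1.00). Gabrb1 had 4.21 and 0.633 CPM in del neurons and 0.924, 0.346, 0.510 and 0.771 CPM in con neurons, with 1 high del library (1.94 ± 0.75).

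Of the 40 log2 fold changes of dupdel over con neurons, 32 were negative, with a median of -0.42 against -0.05 over all genes. For del neurons, 25 of 40 were negative, with a median of -0.05 against -0.03. These medians depended on the replicate block, under which they were -0.24 for dupdel and -0.20 for del, against -0.02 over all genes in each. The median of del over dupdel was 0.37 without the block and -0.06 with it, so a lower level particular to dupdel neurons was not shown. Neuronal markers were 7 of 9 negative in dupdel neurons, with a median of -0.36, and their sums were 3044 and 1683 CPM in dupdel, 3040 and 2321 CPM in del, and 3736, 3285, 2815 and 1908 CPM in con neurons, groups that overlap. Of the dopaminergic markers, 8 of 9 were positive in dupdel neurons, with a median of 0.64, and 8 of 9 negative in del neurons, with a median of -1.72. The part of neuron content in these values was not tested. In every genotype comparison, 0 of the partner genes in the 7 lists passed either.

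**Figure D4:**
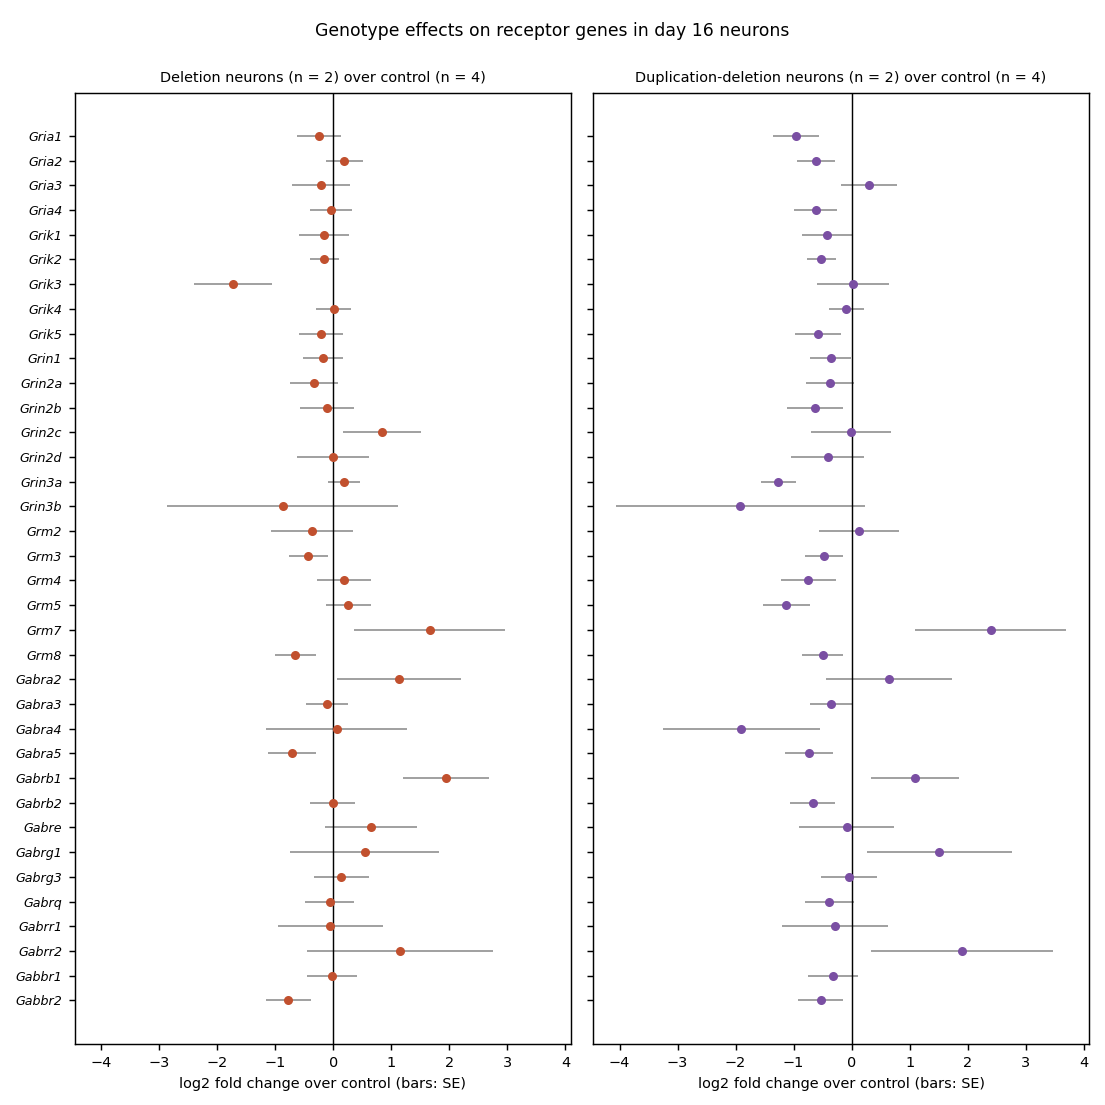
Log2 fold change over control of 36 of the 40 receptor genes tested in day 16 neurons, for del (left) and dupdel (right), with bars of 1 SE. Of the 36 plotted, 22 del values and 28 dupdel values lie left of 0, and none passed the adjusted threshold.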

How the data were processed

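The authors deposited expected counts for each gene. The submitters' processing notes name STAR 2.6.0c, RSEM 1.3.0 and the mm9 build. The deposited table of 6 mutant comparisons holds a signal (mean normalised count), a log2 fold change with its SE, a test score, and p-values and adjusted p-values, from DESeq2 1.22.2 per those notes. No source used here states strand use in counting, so reads of overlapping genes may be mixed; positions are those of the authors' deposited table. Values were rounded (6392 of 29968 entries were not whole), and 92 spike-in entries were left out.

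Tests used edgeR 4.0.16 in R 4.3.3 with robust quasi-likelihood fits, TMM scaling and filterByExpr by group, two-sided, with Benjamini-Hochberg adjustment over all genes. The control stages were 1 fit, the 3 genotypes of a stage another, and mutant stage changes and interactions a fit of all 28 libraries. CPM used TMM sizes over all libraries. A group at 0 was set to a floor of 3 counts to bound its fold; for 1 to 3 counts the ratio has an exact 95% interval. Both cover counting error only. Alternatives were other size factors, no filter, DESeq2 1.42.0, limma-voom (limma 3.58.1), a replicate block and left-out libraries. On simulated counts the fits were checked for recovery of known large changes in well-counted genes. That check does not cover genes with few counts, smaller changes or wider scatter.

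The members, the partner and marker lists and the tests were chosen with earlier results of these data known. Genes named in full were the 5 called with the smallest p in each direction of a control step, the 5 with most CPM in control neurons, and the 2 with the smallest p in each genotype comparison; others were chosen after their values were seen. A partner list names up to 3 called genes. Some genes that these rules pick are not reported here one by one, though they are in every count and median. The main tests used no pairing, and the replicate block was an alternative only. Same-numbered libraries had correlated deviations from group means in ESCs (0.359 to 0.776 in 9 pairs) and neurons (0.139 to 0.66 in 4 pairs). In NPCs such correlations ran from -0.0203 to 0.643, with 6 of 7 pairs over 0.1. In neurons some differently numbered libraries correlated as well, such as con replicate 4 with del replicate 3 (0.512). With 2 libraries in a mutant group their deviations mirror each other, so pairing in neurons is uncertain. Of 33 replicate pairs, 0 were identical. A description label of dupdel NPCs named the deletion only; title and genotype named both and were used. Chromosome contacts (Hi-C) were not analysed here.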

Additional observations from a re-analysis of the deposited data

Results flagged for a closer look

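Of 39 gene and group combinations checked in groups of 4 or 5 libraries, 6 had 1 library far from the others. The chance rate of about 1 in 20 does not apply where all the other libraries are at 0. That was so for Gabrp, Gria1 and Gabrb1, so the count of 6 does not measure an excess over chance. All 6 were in control NPCs. Replicate 2 stood high for Grik1, at 2.011 CPM with the other 4 between 0.962 and 1.16 CPM, for Grm5, at 0.7974 CPM with the others between 0.149 and 0.217 CPM, and for Gabrp, at 0.4334 CPM with the others at 0. Replicate 4 stood high for Grik2, at 23.3 CPM with the others between 10.2 and 13.8 CPM. Replicate 1 had the only Gabrb1 counts, at 0.2923 CPM, and replicate 5 the only Gria1 counts, at 0.07718 CPM.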

How the results depend on the processing

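With DESeq2, 1 gene was lower in dupdel than con neurons, 1 higher in del than dupdel neurons (Grin3a in both) and 1 higher in the del minus con difference of NPCs minus ESCs (Gria1); edgeR called 0 in each. With limma-voom, 1 gene fell between ESCs and NPCs in del cells (3 by edgeR) and 1, Grin3b, fell between NPCs and neurons in dupdel cells (0 by edgeR). Falls between ESCs and NPCs in dupdel cells numbered 3, against 1 with the replicate block and 1 without the low-depth libraries. The block changed no call of a receptor gene within ESCs, NPCs or neurons, though over all genes it raised calls to 40 for dupdel over con neurons, where 7 passed without it. In NPCs, same-numbered pairs correlated at -0.0203 to 0.643, with 6 of 7 over 0.1. Across control stages, 6 of 10 pairs were over 0.1, in a range of -0.281 to 0.494. What same-numbered libraries share is not given in the labels. In the control stages the block lost Gabrr1 at both steps. Leaving out 1 replicate gave 3 to 6 genes falling between control ESCs and NPCs, and 9 to 16 rising between del ESCs and NPCs. No named gene with a call changed direction under these alternatives. Medians over the receptor genes did: del over dupdel in neurons (0.37, and -0.06 with the block) and NPCs (-0.29, and 0.01 with the block), and del over con in ESCs (0.12, and -0.12 without the low-depth libraries, -0.10 without a filter). Over all genes, DESeq2 called 158 for dupdel over con neurons, 64 for del over con neurons (edgeR 0) and 246 for del over dupdel neurons (edgeR 6); in NPCs it called 93 for del and 49 for dupdel over con (edgeR 1 and 2). Relative log expression size factors moved the median of all genes for neurons over NPCs to 0.22, with the same 31 receptor genes higher. A correction for transcript length was not run, since no lengths were at hand; neurons had no low-depth library to leave out. Depth limits the genes near 0 CPM most, and groups of 2 libraries limit every neuron genotype comparison.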
